A study of Mus musculus with 6 samples.

Results

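The coagulation and complement genes described here are the plasma protease cascades of haemostasis and innate immunity, with their cofactors, inhibitors and receptors, serpins left out. Members were chosen by gene symbol from a list of 51, and 48 of them had a probe set among the 19505 genes of the array table. Klkb1, Cpb2 and C3 are not analysed here. The study dosed C57BL/6J mice with MBELN, nanoparticles resembling exosomes that were made from the bark of the mulberry plant, by daily gavage for 7 days, and labelled the tissue taken as colon. Arrays of 3 such samples (MBELN 1 to 3) stood beside 3 from control mice, titled PBS (control 1 to 3). The labels give no age and no genetic change. They do not tie arrays to separate animals, so a p-value here reflects the spread of these samples alone. Within each group that spread runs across arrays that lead with different tissue markers, as given below, and may also be technical.

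Most clotting factors and complement proteins are made by hepatocytes and secreted into blood as inactive precursors. Coagulation runs from tissue factor and the contact system to thrombin, which cuts fibrinogen to fibrin, and the plasminogen system dissolves the clot. Complement starts from C1q on immune complexes, from mannose-binding lectins on sugars, or from the alternative pathway, and ends in a pore of terminal components. A smaller number of members have their main source elsewhere: endothelium carries thrombomodulin and tissue factor pathway inhibitor, macrophages and microglia make C1q, and many cells carry CD55 and CD59 against their own complement.

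Several arrays went against the labelled tissue, which bears on every value below. Colon epithelium markers (13 genes) had a median log2 expression of 18.77 on control 1, while those of the remaining 5 arrays lay at 4.49 to 6.30. Muc2, the main colonic mucin, was at 19.59 on control 1 and no higher than 6.28 elsewhere. Smooth muscle markers (7 genes) were at a median of 18.87 on control 1. The leading markers elsewhere were those of neurons on control 3 (median 15.52), cardiomyocytes on MBELN 1 (19.32), keratinocytes (17.86) and skeletal muscle (16.71) on MBELN 2, and hepatocytes on MBELN 3 (19.48, all 14 above background). Control 2 was flat: the median of 10 housekeeping genes was 6.18, where the others gave 16.23 to 18.00, and 0 of the 48 members were above background there. A gene counts as above background on an array where it exceeds a threshold, the 95th percentile of the negative control probe sets there, which lay between 7.93 (MBELN 1) and 10.11 (control 2). In bulk tissue RNA, fewer cells of a type and less RNA per cell cannot be told apart.

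The members separated by array. On at least 1 array 47 of the 48 were above background (44.4% of all 19505 genes were), and on MBELN 3, the array with hepatocyte genes, 41 were (23.7% of all genes). Of the 48, 29 (60.4%) were above background on MBELN 3 and on no other array, against 3.14% of all genes. A further 12 (25%) were above background on MBELN 3 and on at least 1 other array, against 20.52% of all genes. On other arrays but not on MBELN 3 there were 6 (12.5%), against 20.74% of all genes. Plau was above background on none, as were 55.60% of all genes. With the 99th percentile as the threshold, 33 members were above background on at least 1 array (13.4% of genes) and 25 on MBELN 3 only (2.22% of genes). The 14 then above background nowhere were F7, F8, F11, F13b, C2, C8a and Mbl1 of the 29, Pros1 and Cfp of the 12, and F3, F13a1, Plat, Thbd and Tfpi of the 6. MBELN 3 was the highest array for 37 members (77.1%, against 13.4% of all genes). Among the 28 measured members whose textbook source is the hepatocyte, 27 were above background on MBELN 3 only, the exception being Vtn. Among the 17 with a main source elsewhere 1 was, F8. These source lists were drawn up with earlier results of these data known, so the split is a description and not a test.

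**Figure D1:**
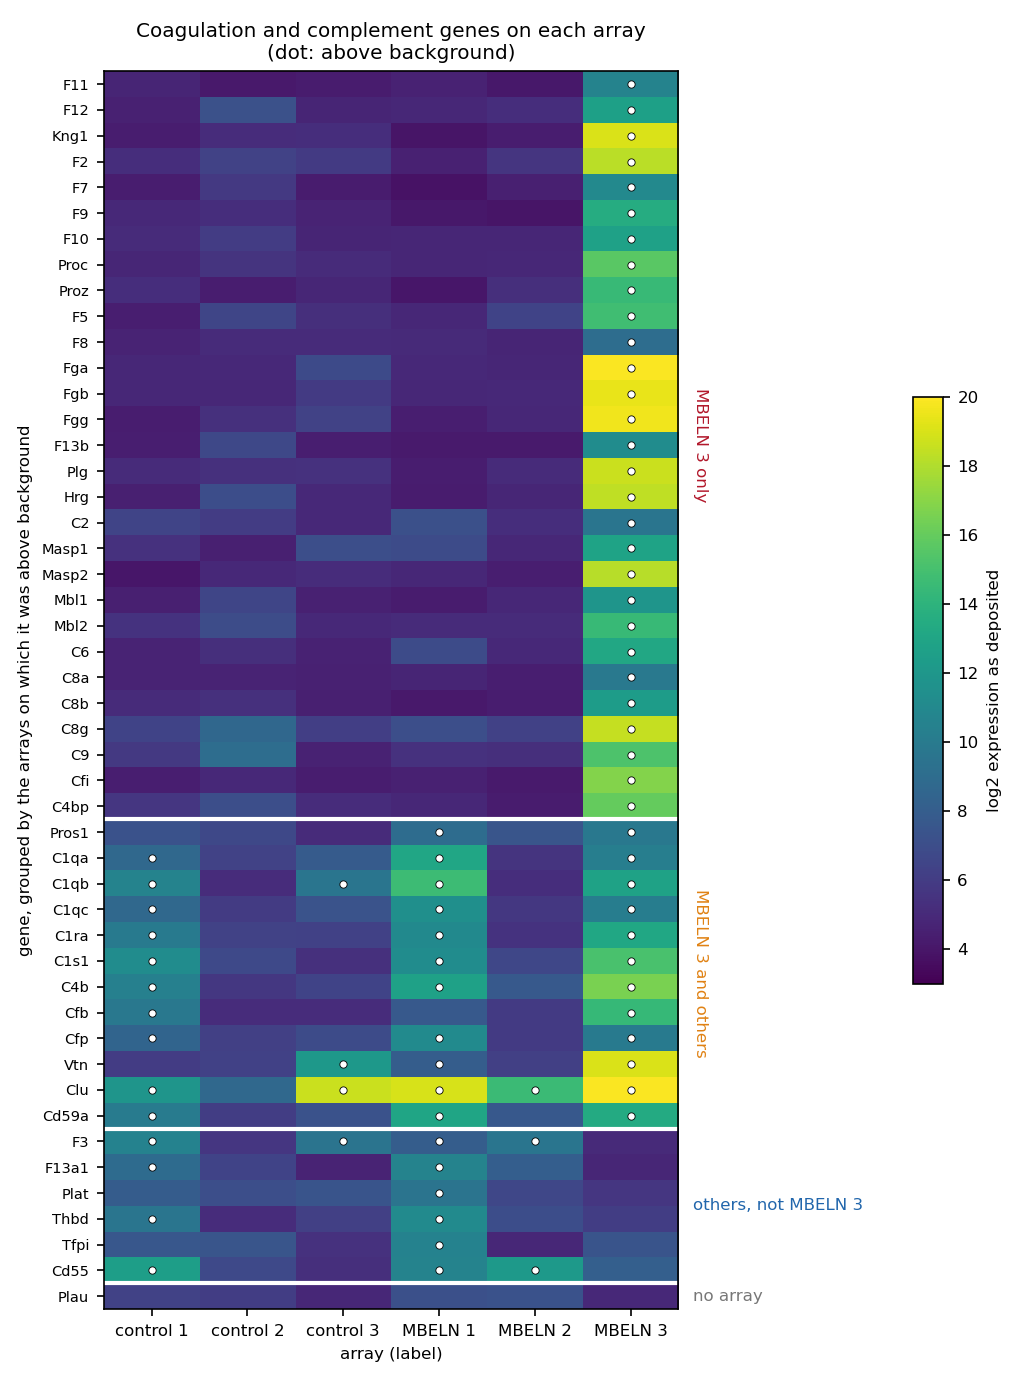
Log2 expression of the 48 measured coagulation and complement genes (rows) on the 6 arrays (columns), with a dot where the gene was above that array's background threshold. The 29 genes at the top have a dot on MBELN 3 alone, the 12 below them on MBELN 3 and others, and control 2 has no dot.

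Fibrinogen was the clearest case. Its chains are encoded by Fga, Fgb and Fgg and join into the soluble precursor of fibrin. The genes neighbour each other with no protein-coding gene between them (RefSeq, GRCm38.p6). Fga was at 4.86, 4.96 and 6.85 on control 1, 2 and 3 and at 4.95, 4.80 and 19.93 on MBELN 1, 2 and 3. Fgb was at 4.90, 4.92 and 5.91 on the controls and at 4.92, 4.99 and 19.42 on the MBELN arrays. Fgg was at 4.38, 5.39 and 6.38, then 4.41, 4.88 and 19.62. All 3 were high on MBELN 3 alone, and the groups overlapped because MBELN 1 and 2 lay among the controls. Since the other arrays were below background, only a bound can be set on the difference: MBELN 3 against the highest background threshold or value of the other 5 arrays. By it Fga was at least 907-fold higher on MBELN 3 than on any of them, Fgb at least 637-fold and Fgg at least 733-fold. These and the bounds below compare single arrays, with no replicate check, and Fga stands at the highest value of the table (19.93), which 22 genes share on that array.

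The stretches before the start sites of the fibrinogen genes are shown because the 3 genes share this pattern, followed by those of C4bp and Cd55, close neighbours that do not (1 protein-coding gene between them). Each is the 250 bases upstream of the RefSeq start (GRCm38.p6), at chr3:83025903-83026152 on the plus strand, chr3:83049864-83050113 on the minus strand, chr3:83007474-83007723 on the plus strand, chr1:130661619-130661868 on the minus strand and chr1:130462745-130462994 on the minus strand. Capitals mark matches, on either strand, to GTTAAT, part of the binding site of the hepatocyte nuclear factor HNF1, and to TTGCNNAA, the site of C/EBP factors.
Fga: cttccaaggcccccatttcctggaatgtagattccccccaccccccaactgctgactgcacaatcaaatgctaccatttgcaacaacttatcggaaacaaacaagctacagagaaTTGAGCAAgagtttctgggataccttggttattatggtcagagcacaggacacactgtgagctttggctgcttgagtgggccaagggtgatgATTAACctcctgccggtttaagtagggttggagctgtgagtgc
Fgb: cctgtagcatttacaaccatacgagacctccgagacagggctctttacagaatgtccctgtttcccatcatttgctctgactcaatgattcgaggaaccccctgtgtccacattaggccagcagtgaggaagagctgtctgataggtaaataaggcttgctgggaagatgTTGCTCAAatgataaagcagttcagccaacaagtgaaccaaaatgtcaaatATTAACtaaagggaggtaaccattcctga
Fgg: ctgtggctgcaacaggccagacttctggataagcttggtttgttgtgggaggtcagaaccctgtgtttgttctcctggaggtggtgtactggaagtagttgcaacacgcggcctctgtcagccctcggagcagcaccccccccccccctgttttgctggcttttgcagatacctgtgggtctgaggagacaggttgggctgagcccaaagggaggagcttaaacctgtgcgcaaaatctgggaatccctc
C4bp: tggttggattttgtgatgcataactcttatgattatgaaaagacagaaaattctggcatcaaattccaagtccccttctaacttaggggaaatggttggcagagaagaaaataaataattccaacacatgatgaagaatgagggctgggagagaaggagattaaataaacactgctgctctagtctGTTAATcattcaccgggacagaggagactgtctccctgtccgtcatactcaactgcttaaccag
Cd55: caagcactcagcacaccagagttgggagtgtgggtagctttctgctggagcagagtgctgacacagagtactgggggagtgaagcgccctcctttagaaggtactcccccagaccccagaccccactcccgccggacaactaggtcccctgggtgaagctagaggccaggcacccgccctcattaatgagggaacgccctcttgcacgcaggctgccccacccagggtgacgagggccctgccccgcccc
Fga held both motifs, with GTTAAT at -43 to -38 and TTGCNNAA at -135 to -128 from the start, and Fgb held them at -29 to -24 and -80 to -73. C4bp had GTTAAT at -64 to -59, and neither motif was in the Fgg and Cd55 windows. RefSeq promoters were at hand for 35 of the 48 members. GTTAAT was in 7 of the 23 members above background on MBELN 3 only (C4bp, C8a, C8b, F13b, Fga, Fgb and Proz), in 3 of 8 on MBELN 3 and others and in 0 of 4 on other arrays only, against 7.49% of all 27025 genes with a window (6.43% of 32851 windows). A gene counts if any of its windows has a match, and 4 members have several. TTGCNNAA was in 6 of 23, 1 of 8 and 0 of 4, against 10.8% of genes. The letters CAAAGTCCA, a site of HNF4, were in 0 of the 35 and in 0.451% of genes, the TATA box TATAAA in 0 of 23, 1 of 8 (Vtn) and 1 of 4 (Tfpi), against 14.3%, and GAGGAAGT, a site of the myeloid factor PU.1, in 1 member, C1qc, against 2.79%. The matches printed do not overlap one another, and a match is a description and not evidence of binding.

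Factor XIII, which crosslinks fibrin, has subunits that lay on different arrays. The carrier subunit gene F13b was at 11.29 on MBELN 3 and at 4.20 to 6.67 on the others, at least 2.27-fold higher. F13a1, the catalytic subunit, made by macrophages and megakaryocytes, was at 8.96, 6.44 and 4.68 on the controls and at 10.63, 8.06 and 4.86 on the MBELN arrays. It was above background on control 1 and MBELN 1 and was below background on MBELN 3. Macrophage markers (11 genes) had medians of 8.45, 6.19 and 6.22 on the controls and 11.17, 6.81 and 9.39 on the MBELN arrays, so that MBELN 3, low for F13a1, was second for the marker list. Of 5 platelet and megakaryocyte markers, Pf4 was above background on those same arrays, at 8.18 on control 1 and 10.66 on MBELN 1, and the other 4 (Ppbp, Itga2b, Gp9 and Treml1) were below it on every array. The list had medians of 4.86 to 5.26 on the controls and 5.31 to 6.66 on the MBELN arrays. Their part in the F13a1 values was not tested.

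The vitamin K-dependent factors carry modified glutamates that bind calcium, and 6 of the 7 were above background on MBELN 3 only. F2, which encodes prothrombin, was at 5.22, 6.39 and 5.87 on the controls and at 4.58, 5.60 and 18.25 on the MBELN arrays, at least 282-fold higher on MBELN 3. Factor IX (F9), missing in haemophilia B, was at 13.52 there against 3.96 to 5.25 (at least 10.7-fold), and protein C (Proc), an anticoagulant protease, at 15.68 against 4.85 to 5.53 (at least 47.5-fold). The adjacent genes F7, F10 and Proz gave the same picture. F7, the partner of tissue factor, was at 10.99 on MBELN 3 against 3.81 to 5.85, F10, the protease that makes thrombin, at 12.73 against 4.77 to 6.03, and Proz, a cofactor for inhibiting factor X, at 14.43 against 4.05 to 5.26.

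The exception was Pros1, protein S, a cofactor of protein C that endothelium and other cells also make. It was at 7.28, 6.71 and 5.08 on control 1, 2 and 3 and at 9.01, 7.46 and 9.82 on MBELN 1, 2 and 3. MBELN 1 and 3 were above background and every MBELN array lay above every control array, by as little as the gap between 7.28 and 7.46. Those 2 values were below background (thresholds 8.14 on control 1 and 9.34 on MBELN 2). The separation of the groups therefore rests on values that are not measured levels. The mean was 8.76 ± 1.20 (SD, n = 3) in MBELN and 6.35 ± 1.14 (SD, n = 3) in control. The fitted difference of 2.41 log2 units (SE 0.89) did not pass (adjusted p = 0.936, limma). Pros1 was above background on no control array and its bound is under 1, so no fold is given. Endothelial markers (12 genes) had medians of 10.53 on MBELN 1, 6.92 on MBELN 3 and 5.91 to 6.58 on the others. Their part in the Pros1 values was not tested.

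Of the contact system, which starts clotting on charged surfaces, the 3 measured members were on MBELN 3 only. Kng1, the kininogen that releases bradykinin, was at 4.34, 5.13 and 5.25 on the controls and at 3.96, 4.38 and 19.05 on the MBELN arrays (at least 492-fold higher on MBELN 3). F11 was at 10.57 on MBELN 3 and 4.11 to 4.77 elsewhere, and F12, the initiating protease, at 12.68 and 4.53 to 7.20.

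Tissue factor and the large cofactors divided in opposite ways. F5, the cofactor of factor Xa, was at 14.77 on MBELN 3 and at 4.46 to 6.58 on the others (at least 25.3-fold higher). F8, the cofactor missing in haemophilia A and made chiefly by endothelium, was at 4.71, 5.12 and 5.10 on the controls and at 5.01, 4.75 and 9.11 on the MBELN arrays. F8 was therefore above background only on MBELN 3, and at the 99th percentile on no array. It was below background on MBELN 1, where 11 of the 12 endothelial markers were above background, against 4 on MBELN 3. Pecam1, an adhesion protein of endothelium, was at 14.79 on MBELN 1 and 7.63 on MBELN 3, and Kdr, a VEGF receptor, at 12.45 and 9.22. F3, tissue factor, which sits on cells outside the blood stream, ran the other way, at 10.53, 5.66 and 9.57 on the controls and at 8.02, 9.61 and 5.02 on the MBELN arrays. It was above background on control 1, control 3, MBELN 2 and, by a small distance, MBELN 1 (threshold 7.93), and below it on the hepatocyte array and on flat control 2. The arrays that carried it led with different markers: smooth muscle and colon epithelium, neurons, heart, and skin with skeletal muscle.

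**Figure D2:**
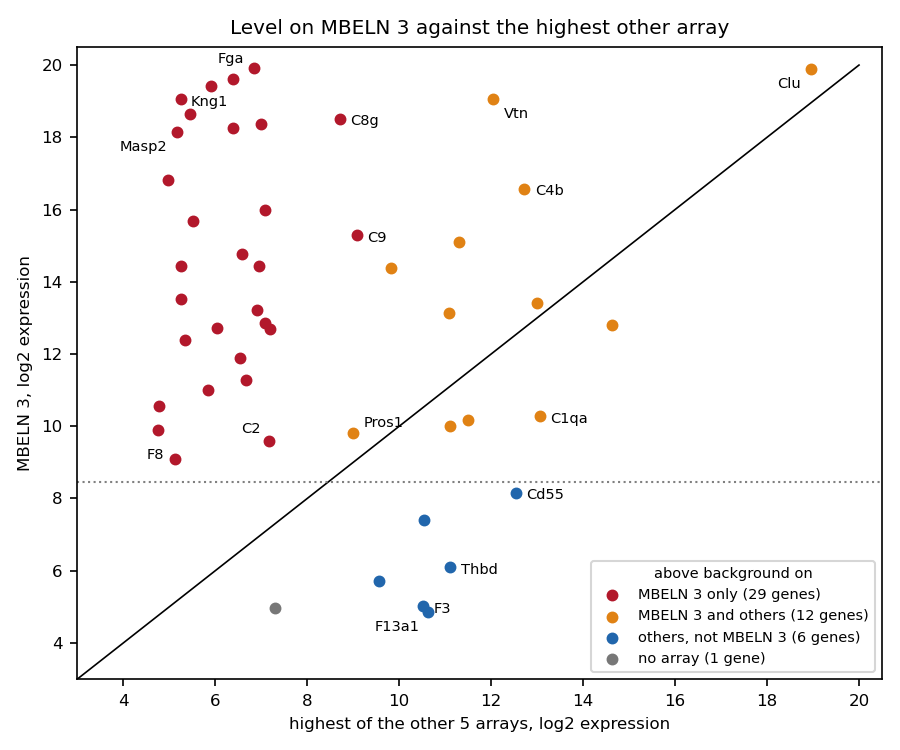
Log2 expression on MBELN 3 (vertical) against the highest of the other 5 arrays (horizontal) for each of the 48 genes, coloured by the arrays on which the gene was above background. The diagonal marks equal values and the dotted line the MBELN 3 threshold of 8.47. The 29 genes on MBELN 3 only lie at the upper left. Their values on the other 5 arrays are below background, so horizontal positions there are not measured levels.

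The plasminogen system split between precursor and activators. Plg, plasminogen, the precursor of the enzyme that dissolves fibrin, was at 5.07, 5.35 and 5.44 on the controls and 4.33, 5.07 and 18.64 on the MBELN arrays (at least 371-fold higher on MBELN 3). Hrg, a histidine-rich plasma protein that binds plasminogen and heparin, was at 18.37 on MBELN 3 and at 4.30 to 6.99 elsewhere. Both activators were below background on MBELN 3. Plat, tissue plasminogen activator, was at 7.92, 7.07 and 7.43 on the controls and at 9.55, 6.63 and 5.71 on the MBELN arrays, above background on MBELN 1 only. Plau, urokinase, ranged from 4.88 to 7.30 and was above background nowhere.

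The endothelial anticoagulants in the list were highest on MBELN 1. Thbd, thrombomodulin, which turns thrombin towards protein C, was at 9.59, 5.16 and 6.22 on the controls and 11.12, 7.04 and 6.09 on the MBELN arrays, 2.89-fold higher on MBELN 1 than on control 1, the other array above background. Tfpi, which inhibits the tissue factor complex, was at 7.63, 7.51 and 5.42, then 10.53, 4.88 and 7.40, above background on MBELN 1 only. These values followed the endothelial markers on MBELN 1 but not in every array. No endothelial marker was above background on control 1, where Thbd was. On MBELN 3, where Thbd and Tfpi were below background, 4 of the 12 endothelial markers were above it.

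**Figure D3:**
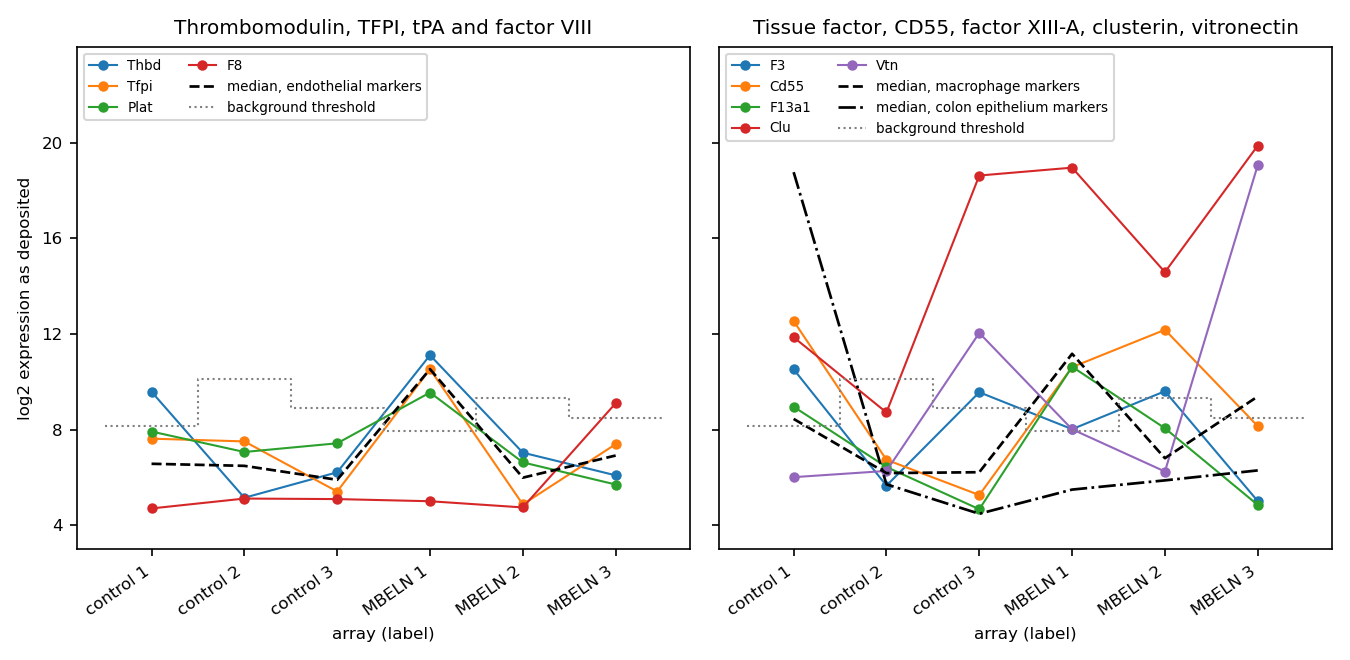
Log2 expression on each array of thrombomodulin (Thbd), Tfpi, Plat and F8 with the median of 12 endothelial markers (left), and of F3, Cd55, F13a1, Clu and Vtn with the medians of 11 macrophage and 13 colon epithelium markers (right). The dotted steps are the background thresholds, 7.93 to 10.11. Thbd, Tfpi and Plat peak on MBELN 1, and F8 rises over its threshold on MBELN 3.

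The first component of complement was present on several arrays. C1qa, C1qb and C1qc encode the chains of the recognition protein C1q and neighbour each other directly. C1qa was at 8.74, 6.34 and 7.91 on the controls and at 13.06, 5.59 and 10.27 on the MBELN arrays. C1qb was at 10.58, 5.13 and 9.60, then 14.63, 5.24 and 12.81, and C1qc at 8.77, 5.96 and 7.35, then 11.50, 5.78 and 10.17. In all 3 the order was MBELN 1, MBELN 3 and control 1, each above background. On control 3 only C1qb was above background, and on control 2 and MBELN 2 no chain was. MBELN 1 exceeded MBELN 3 by 6.93-fold for C1qa, 3.52-fold for C1qb and 2.50-fold for C1qc, each from single arrays.

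C1q therefore did not follow the hepatocyte markers. The medians of the macrophage markers stood in the order MBELN 1 (11.17), MBELN 3 (9.39) and control 1 (8.45), as the C1q chains did. Single markers varied. Csf1r, the receptor of macrophage growth factor, was at 12.07, 10.90 and 9.73 on these arrays. Ctss (11.17, 11.32 and 15.56) and Cd14 (7.53, 7.42 and 9.21) were highest on control 1. The macrophage median was higher on MBELN 2 (6.81) than on control 3 (6.22), the reverse of C1qb, though both medians lay under the array thresholds. On control 3, the array with neuronal genes, C1qb alone of the chains was above background, and microglial markers (8 genes) had a median of 7.16 with 1 above background, P2ry12 at 9.38. Tmem119, a defining microglial marker, was at 5.68 there, below background. Of 4 Kupffer cell markers, Clec4f (10.30) and Cd5l (11.89) were above background on MBELN 3 and nowhere else, Timd4 was above background on no array, and Folr2 was above it on MBELN 1 only, at 11.18, with 7.73 on MBELN 3. The part of any of these cells in the C1q values was not tested. Cfp, properdin, is the leukocyte protein that stabilises the alternative convertase. It was at 8.46, 6.20 and 6.89 on the controls and 11.11, 5.87 and 10.01 on the MBELN arrays. Cfp was above background on MBELN 1, MBELN 3 and control 1, in the order of the C1q chains.

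The proteases of C1 and the proteins they cut were highest on MBELN 3 and lower on other arrays. C1ra was at 9.95, 6.33 and 6.29 on the controls and at 11.08, 5.50 and 13.15 on the MBELN arrays. C1s1, its adjacent partner, was at 11.30, 6.76 and 5.33, then 11.26, 6.59 and 15.10. C4b, the first substrate, was at 10.38, 5.76 and 6.39, then 12.72, 7.78 and 16.57. Each was above background on control 1, MBELN 1 and MBELN 3, and the excess of MBELN 3 over MBELN 1 was 4.20-fold for C1ra, 14.3-fold for C1s1 and 14.4-fold for C4b. Fibroblast markers (6 genes) had medians of 12.63, 6.36 and 5.58 on the controls and 14.07, 9.04 and 8.55 on the MBELN arrays. Their median was thus higher on MBELN 2, where C1ra, C1s1 and C4b were below background, than on MBELN 3. The part of fibroblasts in these values was not tested.

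C2 and Cfb are adjacent and supply the proteases of the classical and alternative convertases. Cfb was at 9.83, 5.15 and 5.16 on the controls and at 7.78, 5.89 and 14.39 on the MBELN arrays, above background on control 1 and MBELN 3. C2 was at 6.46, 6.03 and 4.99, then 7.17, 5.23 and 9.59, above background on MBELN 3 only. C2, F8 and C8a stood below the control 2 threshold of 10.11 on MBELN 3, so that no bound is given for them.

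**Figure D4:**
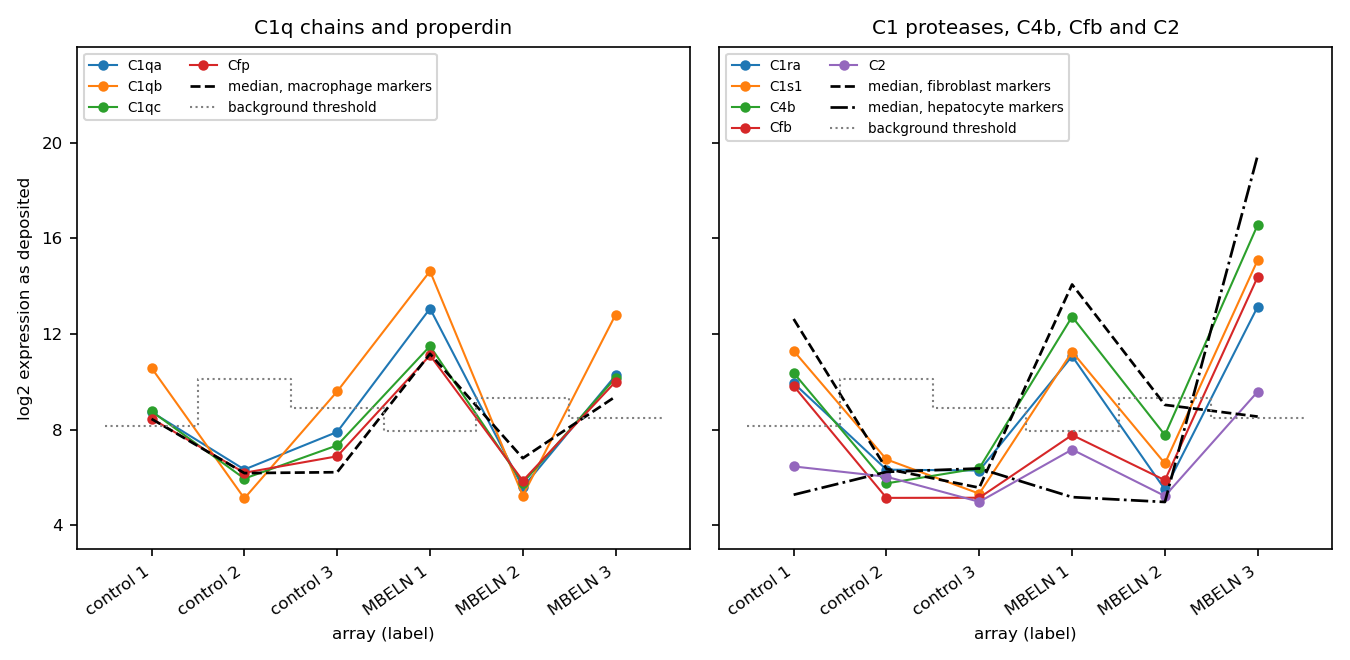
Log2 expression on each array of C1qa, C1qb, C1qc and Cfp with the median of 11 macrophage markers (left), and of C1ra, C1s1, C4b, Cfb and C2 with the medians of 6 fibroblast and 14 hepatocyte markers (right). The dotted steps are the background thresholds, 7.93 to 10.11. The C1q chains and Cfp peak on MBELN 1, while the genes on the right peak on MBELN 3.

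The lectin pathway was on MBELN 3 only, in 4 of 4 members. Masp2, the protease that cleaves C4, was at 4.03, 4.96 and 5.18 on the controls and at 4.89, 4.43 and 18.15 on the MBELN arrays (at least 264-fold higher on MBELN 3). The mannose-binding lectins Mbl1 and Mbl2 were at 11.89 and 14.44 on MBELN 3, against 4.31 to 6.53 and 4.95 to 6.96 elsewhere, and the protease gene Masp1 was at 12.85 against 4.52 to 7.09.

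All 5 terminal components in the list, which build the membrane attack pore, were above background on MBELN 3 and nowhere else. C8 has 3 chains from separate genes. C8g, a lipocalin, was at 6.39, 8.71 and 6.13 on the controls and at 7.07, 6.31 and 18.52 on the MBELN arrays, at least 340-fold higher on MBELN 3. C8a was at 9.90 there against 4.45 to 4.76 elsewhere, and its adjacent partner C8b at 12.38 against 4.17 to 5.34. C6 was at 13.21 against 4.62 to 6.92, and C9, which polymerises into the pore wall, at 15.28 against 4.62 to 9.08. The highest other values, 9.08 for C9 and 8.71 for C8g, were on flat control 2 and under its threshold.

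Fluid-phase regulators followed the hepatocyte array. Cfi, the protease that inactivates C3b and C4b, was at 4.42, 4.98 and 4.35 on the controls and at 4.58, 4.25 and 16.81 on the MBELN arrays, at least 104-fold higher on MBELN 3. C4bp, its cofactor, was at 15.98 on MBELN 3 and at 4.28 to 7.08 elsewhere. Vtn, vitronectin, which blocks the terminal pore and binds cells, was at 6.02, 6.28 and 12.05 on the controls and at 8.02, 6.25 and 19.06 on the MBELN arrays. It was above background on control 3 as well, 129-fold below MBELN 3, and by a small distance on MBELN 1. Of the 14 hepatocyte markers, 2 were above background on control 3 (Alb at 13.26 and Ttr at 9.44), 3 on control 1 (Tat at 10.05, Ttr at 8.72 and Hpd at 8.15), where Vtn was below background, and 1 on MBELN 1 (Ahsg at 12.75). Fga, Fgb and Fgg had their second highest values on control 3, though below background, so these are not measured levels. Other members on MBELN 3 only, among them F2, F9 and C4bp, had theirs on flat control 2. Whether these values on control 3 share a source was not tested.

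Clu, clusterin, a chaperone that binds the terminal complex, was the one member above background on 5 arrays. It was at 11.87, 8.72 and 18.63 on the controls and at 18.96, 14.59 and 19.88 on the MBELN arrays. The values on control 3, MBELN 1 and MBELN 3 lay within 2.38-fold of each other, and MBELN 3 exceeded control 1 by 258-fold. The MBELN 3 value stands close to the highest value of the table (19.93), which limits what these folds measure. The membrane regulators differed from each other. Cd55, which breaks up convertases, was at 12.54, 6.74 and 5.27 on the controls and at 10.62, 12.18 and 8.15 on the MBELN arrays, above background on control 1, MBELN 1 and MBELN 2 and just below it on MBELN 3 (threshold 8.47). The arrays highest for Cd55 were control 1, with smooth muscle and colon epithelium markers, and MBELN 2, with keratinocyte and skeletal muscle markers. On MBELN 1 no colon epithelium or keratinocyte marker was above background, while 6 of 7 smooth muscle and 2 of 9 skeletal muscle markers were. The part of any of these cells in the Cd55 values was not tested. Cd59a, which stops C9 from joining the pore, was at 10.05, 6.08 and 7.28, then 13.003, 7.68 and 13.42, above background on control 1, MBELN 1 and MBELN 3.

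Of 9 pairs of directly adjacent members, 7 (77.8%) were above background on exactly the same arrays. Among 1072 pairs of members that are not adjacent, both above background somewhere, 39.4% were, and among 4131 such adjacent pairs of all genes 13.2%. The pairs that differed were Cfb with C2 and C1qb with C1qc. The pairs are few and several share a gene, so the shares are a description with no test.

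Other genes of these pathways, serpins again left out, numbered 52 measured. Of these, 34 were above background on at least 1 array, against 44.4% of all genes. On MBELN 3 only there were 8, against 3.14% of all genes. Klk1, Cpn1, Cfhr2, Hc, Kng2 and Habp2 are described by rule, as the 6 with the widest gap between their highest array and the next. The next array was below background in each, so the gap ranks them without measuring a difference. Klk1, a tissue kallikrein that releases kinin, was at 19.49 on control 1, the array with colon genes, and at 4.17 to 6.59 on the others. The remaining 5 were on MBELN 3 only: Hc, the mouse C5 gene, at 15.26 there, Cpn1, a carboxypeptidase that trims kinins and anaphylatoxins, at 15.92, the factor H relative Cfhr2 at 18.04, the second kininogen gene Kng2 at 15.80 and Habp2, which encodes a plasma protease, at 12.54. The genes in the next sentences were chosen after their values were seen. C7, which joins C6 in the pore, was at 10.81 on control 1 and 11.02 on MBELN 1 and at 7.53 on MBELN 3, below background, unlike the 5 terminal components in the list. Ggcx, the carboxylase that modifies vitamin K-dependent factors, was at 12.78 on MBELN 3 and 10.14 on MBELN 1, and Vkorc1, which recycles vitamin K, was above background on 4 arrays, with 15.29 on MBELN 3. Vwf, the carrier of factor VIII, was at 13.08 on MBELN 1 and at 5.32 to 6.17 on the other arrays, while F8 was above background only on MBELN 3.

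The comparison the study set up, MBELN against control, was fitted over all 22206 probe sets. No member passed limma's test at an adjusted p of 0.05 (0 of 48, with a background of 0%), and the adjusted p of members lay between 0.936 and 0.978. At an unadjusted p under 0.05 stood 1 member, Pros1 (2.08%), against 1.9% of all probe sets. By direction the count was 1 member higher in MBELN, against 1.39% of genes, and 0 lower, against 0.579%. Groups did not overlap for 1 member, again Pros1, against 6.93% of all genes (3.58% with MBELN higher and 3.35% with MBELN lower). That count moved to 5, 3 and 2 without control 1, 2 and 3 and to 3, 12 and 7 without MBELN 1, 2 and 3, where the background was 13.1% to 22.1%.

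Member differences were nearly all positive. The fitted difference, MBELN minus control, was above 0 for 46 of 48 members, against 49.9% of genes, with F3 and Plat below 0. Its median was 2.40 log2 units over the members and -0.00049 over all genes. Without MBELN 3 the median was -0.065 over the members and -0.0285 over all genes. In that fit 22 of 48 differences were above 0, against 48.7% of genes. For the 29 members on MBELN 3 only, the SD within the MBELN group had a median of 5.49, against 0.664 within the control group, with the genes above background on a single array. Their fitted values measure no fold, because the control arrays were below background. C4b had the largest fitted difference, 12.36 ± 4.41 (SD, n = 3) in MBELN and 7.51 ± 2.51 (SD, n = 3) in control, a log2 difference of 4.85 (SE 2.44, limma adjusted p = 0.936), which was 2.74 without MBELN 3. Clu followed with 17.81 ± 2.83 (SD, n = 3) against 13.07 ± 5.06 (SD, n = 3), a difference of 4.74 (SE 2.78), and 3.70 without MBELN 3. The difference of Cd59a was 3.57 (SE 1.85) and that of C6 3.51 (SE 2.09), and neither passed (limma adjusted p = 0.936). These differences run across arrays that lead with different tissue markers, so group and tissue markers cannot be told apart.

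**Figure D5:**
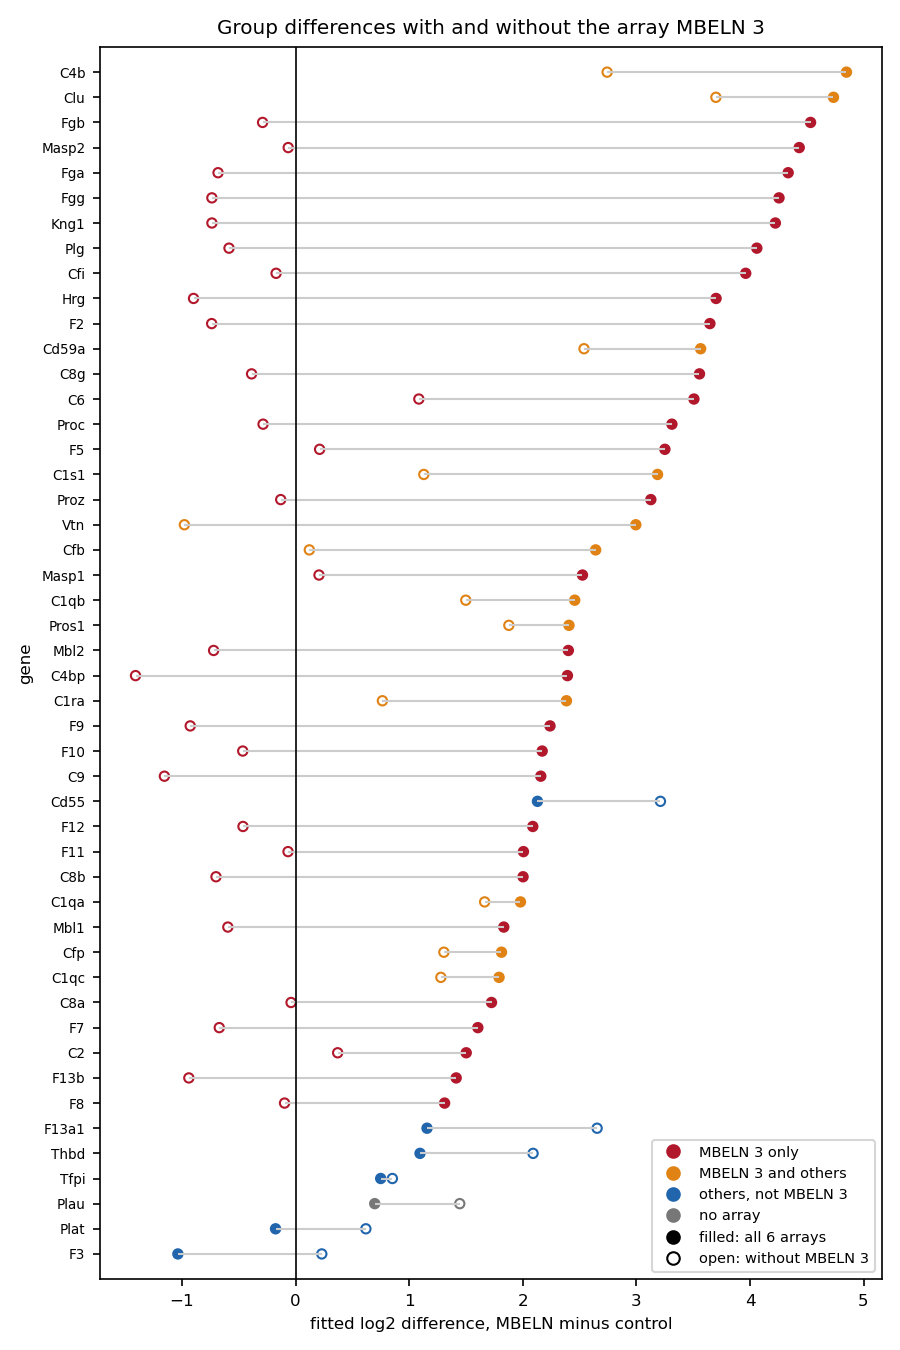
Fitted log2 difference, MBELN minus control, for each of the 48 genes with all 6 arrays (filled) and without MBELN 3 (open), coloured by the arrays on which the gene was above background. With all arrays 46 genes lie above 0 (49.9% of all genes do), and without MBELN 3 22 do (48.7% of all genes).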

How the data were processed

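RNA of 6 samples labelled colon (3 control, 3 MBELN) was hybridised to Affymetrix mouse arrays (90 ng each, per the labels' protocols, which also name an IonAmpliseq panel). The deposited table holds log2 expression for 28846 probe sets, between 3.38 and 19.93. Transcriptome Analysis Console 4.0 is named in the submitters' processing notes. For summarisation, normalisation between arrays and genome build, no statement was found in those notes or the labels. The log scale was inferred: the top value equals log2 of 1000000. Values were used as deposited. For arrays, their number limits the precision.

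Without the 6640 control probe sets, 22206 were tested. Of these, 19572 carried 1 symbol in the platform annotation, 0 several and 2634 none, and all 19572 matched RefSeq (GRCm38.p6) by Entrez number. Where a gene had several probe sets, the one with the highest mean stood for it. Each of the 48 measured members had 1. Background was the 95th percentile of the 5222 negative controls of an array. No level is set against that of another probe set. A bound compares MBELN 3 with, over the other 5 arrays, the highest of threshold and value.

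Groups were compared with limma 3.58.1 (lmFit, eBayes) (R 4.3.3). Tests were 2-sided, p-values were adjusted by Benjamini and Hochberg's method across the 22206 probe sets, and the threshold was 0.05. The fit was tested on simulated data. Summaries and plots were made in Python 3.11.15 with pandas 2.3.3 and matplotlib 3.10.9. Members, their roles, their textbook sources, the other pathway genes and the markers were chosen with earlier results of these data known. Every member may be named. The rule called for values on all 6 arrays for members above background; for 18 of those on MBELN 3 only, the MBELN 3 value and the range of the others are given instead. Of the other pathway genes, 6 are named by the gap between the highest and second highest array, and others as stated. Fitted differences are given for the 5 members with the smallest p, a choice made after the data were seen. Alternatives were a robust prior with an intensity trend, equal array medians, quantile normalisation, a plain t statistic, filters on dim probe sets (25th percentile, median), averaging probe sets of 1 gene, the replicate number as a block, other background thresholds (90th and 99th percentile), a margin of 2 log2 units and leaving out each array in turn. All 6 sample columns were used.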

Additional observations from a re-analysis of the deposited data

How the results depend on the processing

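No member passed the adjusted test under any of the 13 alternatives run (limma or the plain t statistic), with the smallest adjusted p of a member between 0.765 (without control 1) and 0.999. The count at an unadjusted p under 0.05 ranged from 0 to 10, the latter without MBELN 2, where 2.58% of all probe sets reached it. The replicate block also gave 0 called members, with 2 at an unadjusted p under 0.05 against 2.81% of all probe sets. Deviations from the group means correlated at 0.113, 0.119 and -0.0508 between same-numbered arrays, and at -0.181 to 0.096 between differently numbered ones. Since the arrays lead with different tissue markers, these values cannot settle whether the numbers pair the samples. The median difference of the members was 2.40, and leaving out each array gave -0.065 (without MBELN 3) to 4.10 (without MBELN 2). With quantile normalisation it was 2.06. The number of members on MBELN 3 only was 29 under 6 of the 10 alternatives run, 29 to 30 when an array other than MBELN 3 was left out, 25 at the 99th percentile (against 2.22% of all genes), which also took members above background on any array from 47 to 33, and 34 by a margin of 2 log2 units (against 3.89%). Members with non-overlapping groups numbered 1, and 2 with quantile normalisation, against 8.60% of genes, and leaving out each array gave 2 to 12. The filter at the median removed 9 members. The Pros1, C4b, Cd59a, Clu and C6 differences kept their sign in every fit run, and none passed.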

Other observations

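The following complement receptors and regulators were chosen after their values were seen. C3ar1, the C3a receptor of myeloid cells, was at 11.06 on MBELN 1 and at 4.68 to 7.54 on the others, above background on MBELN 1 only. Cd93, an endothelial and myeloid surface protein, was at 10.16 on MBELN 1 against 4.74 to 7.06, and Itgam, a chain of complement receptor CR3, at 8.77 against 5.52 to 7.36. On control 3, the array with neuronal genes, Susd4, a membrane complement inhibitor, was at 12.55 against 5.52 to 6.09 elsewhere, and Csmd2, a large neuronal protein with complement control domains, at 9.09 against 4.02 to 5.78. Cr1l, the rodent regulator Crry, was above background on every array but control 2, at 9.61 to 11.54. Vsig4, a complement receptor of tissue macrophages, was above background on MBELN 3 (9.89) and MBELN 1 (8.42), and C5ar1, C5ar2, Cr2, Itgax and Itgb2 on no array.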
